A study of Mus musculus with 10 samples.

Results

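Suprabasal cells of the sweat duct were compared with palmoplantar epidermis, the skin of the sole into which the duct opens. The comparison rests on 4 of the 10 arrays of the series, chosen by their labels: 2 of duct suprabasal cells and 2 of epidermis. The other 6 arrays, 2 each of duct basal, gland luminal and gland myoepithelial cells, entered the model only to estimate the spread between arrays, and are quoted beside some results. Cells of every population came from the paw pads of female CD1 mice, all wild-type, and were purified by flow cytometric sorting, and total RNA was hybridised to mouse expression arrays. Sorting markers, animals per array and ages are not given in the sources used here, and arrays of a population are labelled as biological replicates without any stated pairing between populations. Signals are linear MAS5 intensities, scaled to 1 trimmed mean on all arrays.

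The sweat duct is a stratified tube whose inner, suprabasal cells face the lumen and reclaim sodium and chloride from primary sweat, through the epithelial sodium channel at the luminal surface and the sodium pump at the basolateral surface. Epidermal keratinocytes take another course. They leave the basal layer, switch to the keratins of the spinous layer, and then build the cornified envelope, a shell of small proline-rich proteins, loricrin and filaggrin-like proteins that transglutaminases cross-link and that carries bound ceramides. In bulk samples of this kind, fewer cells of a type and less RNA per cell cannot be told apart.

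Differences below are duct suprabasal minus epidermis on the log2(signal + 12) scale, which understates the change of dim genes. Where the signals of a population lie below the constant of 12, the size of a difference is set largely by that constant and by the brightness of the probe set. Each is given with its standard error (SE) and a limma p-value with Benjamini-Hochberg adjustment over 9320 genes. Nothing says how far the arrays of a population are separate animals, so p-values measure only the spread seen here, and a gene was called at an adjusted p under 0.05. Each gene is represented by 1 probe set, and signals of different genes are not compared, since probe sets differ in brightness.

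Levels in the other populations are set beside these. Against duct basal cells 8.39% of genes were higher and 7.97% lower in duct suprabasal cells, and against luminal cells 10.2% were higher and 4.95% lower.

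The labels were first checked on 3 markers. Scnn1b, the beta subunit of the epithelial sodium channel, had signals of 538 and 391 on the duct suprabasal arrays and 23.5 and 42.1 on the epidermis arrays (log2 difference 3.43, SE 0.31, adjusted p = 6.36e-05). Krt8, a keratin of simple epithelia, had 10825 and 4438 against 17.8 and 3.5 (8.34, SE 0.47, adjusted p = 9.18e-06). Tgm1, the transglutaminase that cross-links the cornified envelope, had 199 and 97.8 against 1098 and 1388 (-3.03, SE 0.38, adjusted p = 0.000286). Duct suprabasal arrays were thus the brighter for the sodium channel and simple epithelial markers and the dimmer for the epidermal one, with no overlap. Neither Krt8 nor Scnn1b told the duct from the coil. Krt8 had 15463 and 19734 on the luminal and 1836 and 905 on the duct basal arrays, and Scnn1b differed from luminal cells by 0.03 (adjusted p = 0.952).

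The duct suprabasal arrays stood apart from the other pairs. Their correlation, taken over genes that do not vary independently of each other, was 0.907, against 0.963 to 0.981 in the other 4 populations, and 1873 genes lay more than 2-fold apart on them, against 505 on the epidermis arrays. Markers of connective tissue and vessels were brighter on array 2. The fibroblast list had 17 of 17 tested members brighter there, with summed signals of 22748.7 on array 1 and 123647 on array 2, against 1691.6 and 2003.0 on the epidermis arrays. The endothelial list had 15 of 15, with sums of 6004.1 and 29753.8 against 194.6 and 263.2. Markers shared with secretory cells leaned the other way. The simple epithelial list had 14 of 14 members brighter on array 1, where the median member had a signal of 5599.65 against 2257.55 on array 2, 1081.75 for the duct basal mean and 6021.62 for the luminal mean. Results are therefore given with both duct suprabasal arrays and, where it matters, with either left out. The model estimated a common spread per gene over all populations. For genes on which the duct suprabasal arrays lay far apart, SEs and p-values can therefore be too small. With only the 4 arrays of the comparison, 3246 genes were called instead of 4291, though that model also had fewer arrays to estimate the spread.

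**Figure D1:**
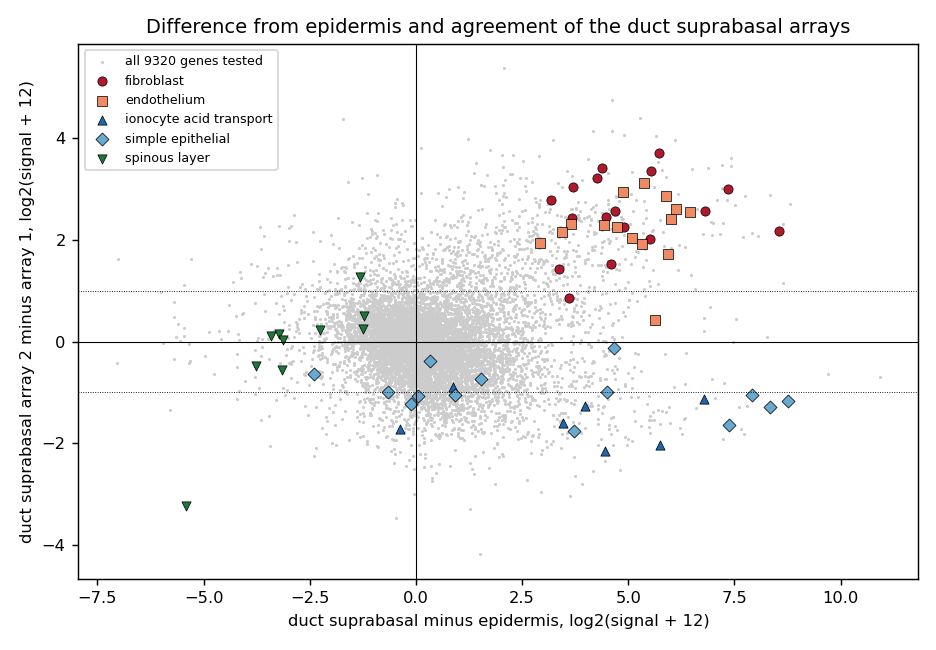
Each point is a gene; the x axis is the duct suprabasal minus epidermis difference and the y axis the difference of duct suprabasal array 2 minus array 1, both in log2(signal + 12), with dotted lines at 2-fold between the arrays. Fibroblast (17) and endothelial (15) genes lie to the upper right, all brighter on array 2; the 14 simple epithelial genes and 7 ionocyte genes lie below 0, brighter on array 1; 9 of the 10 spinous layer genes lie between the lines or just above them, and Krt2 lies below.

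Of 9320 genes tested, 4291 were called (46.0%), 2739 of them higher in duct suprabasal cells (29.4% of genes) and 1552 lower (16.7%). By at least 2-fold, 2330 were higher (25.0%) and 958 lower (10.3%). The arrays of the populations did not overlap for 6768 genes (72.6%). The balance of directions moved with the scaling. The median probe set signal was 65.7 and 67.3 on the epidermis arrays and 120.1 and 118.7 on the duct suprabasal arrays, and the median difference of all genes tested was 0.26. After quantile normalization, which moved that median to -0.10, 1917 genes were higher (20.6%) and 2086 lower (22.4%), and with each array centred on its median 1753 were higher (18.8%) and 2702 lower (29.0%). Without epidermis array 1 or 2 the lower calls numbered 919 or 968. Calls held in all 3 scalings for 1649 higher genes (17.7%) and 1449 lower genes (15.5%), and member counts below are followed by the number that held in all 3. Each member count is to be read beside the 29.4% of all genes called higher and the 16.7% called lower.

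Among the 2739 genes called higher, 1941 (70.9%) lay within 2-fold on the duct suprabasal arrays, 485 (17.7%) were at least 2-fold brighter on array 2 and 313 (11.4%) at least 2-fold brighter on array 1. Over all genes tested the last 2 shares were 11.1% and 9.05%. Genes brighter on array 2 had a median signal of 439.1 in duct suprabasal cells, 16.8 in epidermis, 86.7 in duct basal and 61.85 in luminal cells. Genes brighter on array 1 had 666.45, 54.15, 260.5 and 831.45 in the same order, so their median was higher in luminal than in duct suprabasal cells. All 485 of the first kind kept their call without array 1 and 367 did without array 2, and of the 313, 203 kept it without array 1 and 313 without array 2. Whether cells of other types contributed to these signals was not tested.

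**Figure D2:**
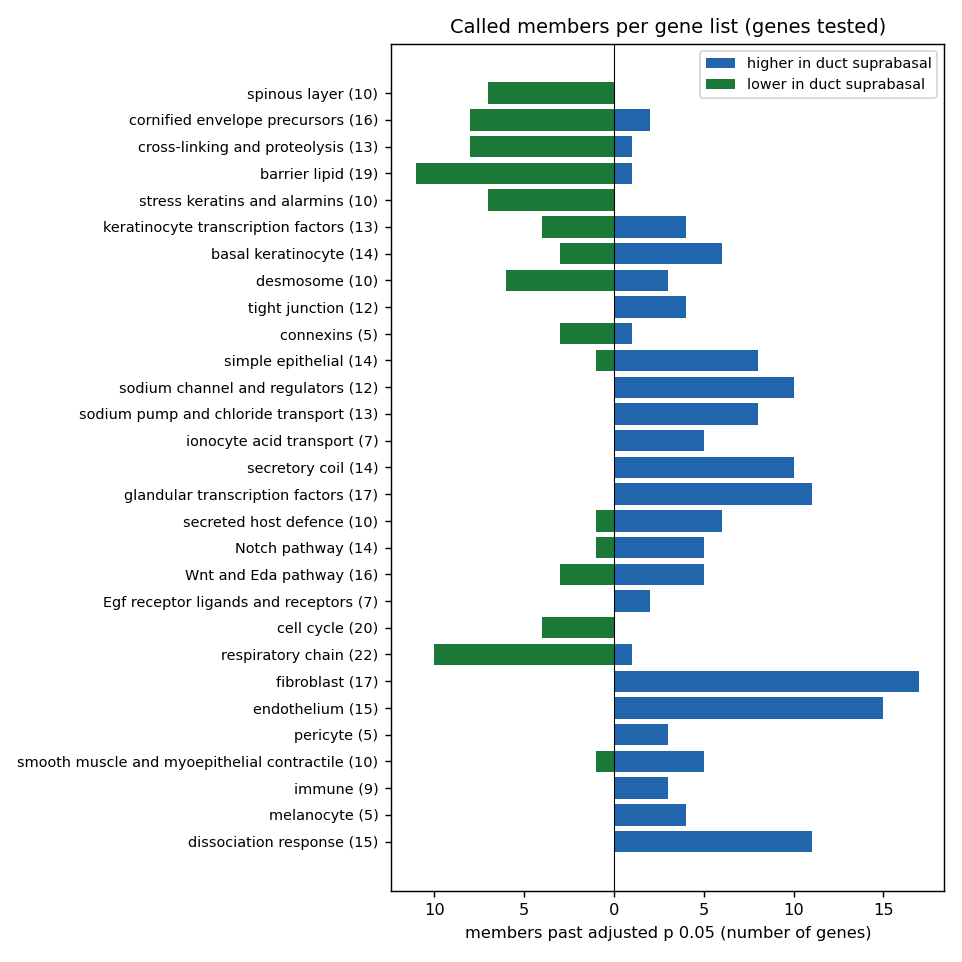
Bars give the number of members of each gene list called higher (blue, to the right) or lower (green, to the left) in duct suprabasal cells at an adjusted p under 0.05, with the number tested in brackets. Lists of the epidermal program extend to the left, with 7 of 10 spinous layer and 8 of 16 cornified envelope genes lower, and ion transport, secretory and other cell type lists to the right, with 10 of 12 sodium channel genes higher.

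The epidermal program was lower in duct suprabasal cells from the spinous layer to the barrier lipids. Of 10 spinous layer genes tested, 7 were lower (7 in all scalings) and 0 higher, with a median difference of -3.15 beside 0.26 for all genes. Krt1, the basic keratin of the spinous layer, had signals of 2859 and 3159 against 28791 and 27706 on the epidermis arrays (-3.23, SE 0.35, adjusted p = 0.000156). Its partner Krt10 had 5549 and 3754 against 40254 and 41859.7 (-3.17, SE 0.52, adjusted p = 0.00118). The arrays of each population were close to each other for both genes and far from those of the other. Krt2, a keratin of the upper spinous and granular layers, had 2106 and 212 against 33655 and 25575 (-5.41, SE 1.04, adjusted p = 0.00273), and the difference was -7.03 without duct suprabasal array 1 and -3.79 without array 2. Its duct suprabasal arrays lay far apart, yet both were far below epidermis. Sfn, which encodes stratifin, an adaptor protein of differentiating keratinocytes, had 590.2 and 640.2 against 6086 and 7236 (-3.41, SE 0.33, adjusted p = 8.71e-05). Not every gene of this layer passed. Krtdap, the keratinocyte differentiation-associated protein, had 12326 and 17546 against 35491 and 32834 (-1.21, adjusted p = 0.165), and Calml3, a calmodulin-like protein, 9763 and 11558 against 24579.7 and 25552 (-1.24, adjusted p = 0.0927).

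These spinous transcripts separated duct from coil as well. Krt1 had signals of 4147 and 8452 on the duct basal arrays and 61 and 104 on the luminal arrays. It was higher in duct suprabasal than in luminal cells by 5.04 (adjusted p = 0.000125), while the difference from duct basal cells was -0.98 (adjusted p = 0.0907). Krtdap differed from luminal cells by 6.17 (adjusted p = 0.000985), with luminal signals of 83.3 and 429. Krt1 in duct suprabasal cells thus lay between epidermis and luminal cells, and differed from both; for Krtdap the difference from luminal cells alone passed the test.

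Cornified envelope genes split. Of 16 tested, 8 were lower (8 in all scalings) and 2 higher (1), with a median of -1.46, and 9 of the 25 measured were too dim to be tested. Hrnr, a filaggrin-like protein of the cornified layer, had 3.2 and 3 against 815 and 1061 (-5.96, SE 0.55, adjusted p = 6.85e-05). Lor, loricrin, the main envelope protein, had 99.1 and 75.3 against 1125 and 1009 (-3.45, SE 0.36, adjusted p = 0.000121). Both were at a low signal on each duct suprabasal array. Sprr2d and Sprr2h, small proline-rich cross-bridges of the envelope, were lower by similar amounts. Sprr2d had 46.9 and 14.9 against 833 and 637 (-4.22, SE 0.50, adjusted p = 0.000228), and Sprr2h had 25.8 and 8.2 against 402 and 301 (-3.70, SE 0.58, adjusted p = 0.000962).

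The largest fall in the list and its largest gain came from a pair of close relatives, Sprr1b and Sprr1a. Sprr1b had signals of 71.5 and 50.2 against 8954 and 10158 (-7.05, SE 0.37, adjusted p = 7.93e-06). Sprr1a had 3239 and 1569 against 621 and 464 (2.05, SE 0.50, adjusted p = 0.0088), and without epidermis array 2 the difference was 1.84 with an adjusted p of 0.0644. In neither gene did the arrays overlap. Sprr1a was also the brighter in duct suprabasal cells than in duct basal cells, at 677 and 551 (1.86, adjusted p = 0.0349), and than in luminal cells, at 80.1 and 267 (3.82, adjusted p = 0.00222). Scel, sciellin, an envelope precursor of stratified epithelia, was the other gene called higher, with 5382 and 1534 against 1159 and 601 (1.77, SE 0.58, adjusted p = 0.0319), and it missed the threshold without duct suprabasal array 1 (0.87, adjusted p = 0.184), without epidermis array 2 (1.30, adjusted p = 0.199) and with arrays centred (1.27, adjusted p = 0.0963). Ppl, periplakin, had 827 and 579 against 576 and 718 and was not called (0.10, adjusted p = 0.787).

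Sprr1a and Sprr1b are neighbours on mouse chromosome 3, with only 1 RefSeq gene, Sprr3, starting between them, and Lor lies on the same chromosome. Because the relatives moved in opposite directions, the 250 bases before each start are shown with Lor for comparison, from RefSeq on GRCm38.p6, 5′ to 3′ on the coding strand. Capitals mark matches to TGANTCA, a pattern for the AP-1 element that admits any base at its centre, searched on both strands. The windows are chr3:92485882-92486131 for Sprr1a, chr3:92438780-92439029 for Sprr1b and chr3:92083143-92083392 for Lor, all on the minus strand.
Sprr1a: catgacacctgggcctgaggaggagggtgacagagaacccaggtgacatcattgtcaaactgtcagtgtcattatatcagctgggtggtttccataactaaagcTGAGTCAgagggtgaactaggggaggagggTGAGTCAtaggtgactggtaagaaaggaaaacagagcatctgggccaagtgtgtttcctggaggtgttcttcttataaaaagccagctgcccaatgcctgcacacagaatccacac
Sprr1b: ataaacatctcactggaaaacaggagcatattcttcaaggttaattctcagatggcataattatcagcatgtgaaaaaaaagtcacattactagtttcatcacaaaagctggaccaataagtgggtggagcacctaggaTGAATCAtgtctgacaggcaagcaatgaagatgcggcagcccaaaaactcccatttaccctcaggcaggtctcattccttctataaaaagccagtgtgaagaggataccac
Lor: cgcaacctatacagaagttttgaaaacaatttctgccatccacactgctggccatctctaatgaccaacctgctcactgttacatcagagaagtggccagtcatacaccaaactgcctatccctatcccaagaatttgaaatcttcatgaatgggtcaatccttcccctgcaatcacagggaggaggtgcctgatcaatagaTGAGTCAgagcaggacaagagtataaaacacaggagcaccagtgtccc
Sprr1a holds 2 matches, whose first bases lie 146 and 116 bases before the start, while Sprr1b holds 1 at 111 and Lor 1 at 48. The matches read TGAGTCA in Sprr1a and Lor and TGAATCA in Sprr1b. With any base allowed at the centre, the pattern stood in a window of 7.82% of 27025 genes. Among epidermal genes called lower that had a window, it stood in 8 of 30 (26.7%). Among ductal genes called higher it stood in 3 of 34 (8.82%). Other motifs searched in the same windows were AACNGGTT (Grainyhead-like), in 2.00% of all genes, 1 of the 30 and 2 of the 34, and TGTTTAC (forkhead), in 3.54%, 2 of the 30 and 1 of the 34. A match describes the letters and not binding, and promoters of genes of both directions carried it here.

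Envelope cross-linking and proteolysis genes were lower in 8 of 13 cases (8 in all scalings) and higher in 1 (0), with a median of -2.58. Tgm3, the transglutaminase of the late envelope, had 74.1 and 60.2 against 532 and 780.5 (-3.06, SE 0.37, adjusted p = 0.000264), beside Tgm1 above. Cst6, cystatin M/E, a protease inhibitor that restrains desquamation, had 272 and 392 against 5499.8 and 7339 (-4.23, SE 0.61, adjusted p = 0.000635). Klk8, a kallikrein protease of the upper epidermis, had 985 and 2780.0 against 23452 and 20993 (-3.73, SE 0.72, adjusted p = 0.00289). All 3 had duct suprabasal arrays below both epidermis arrays, although Klk8 was more than 2-fold brighter on array 2 than on array 1. St14, which encodes the membrane protease matriptase, was the gene called higher, with 1533 and 978 against 295 and 372 (1.85, SE 0.63, adjusted p = 0.0383). That call was lost after quantile normalization (1.61, adjusted p = 0.0571), with arrays centred (1.35, adjusted p = 0.0884), without duct suprabasal array 1 (1.53, adjusted p = 0.136), and without epidermis array 1 (1.69, adjusted p = 0.159) or 2 (2.01, adjusted p = 0.104).

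Barrier lipid genes were lower in 11 of 19 cases (10 in all scalings) and higher in 1 (0), with a median of -1.06, and without epidermis array 1 the count of lower genes was 7. The gene called higher was Sptlc2, of the first step of sphingolipid synthesis, at 533 and 618 against 397 and 293 (0.73, SE 0.22, adjusted p = 0.0227), a call lost without duct suprabasal array 2 (0.63, adjusted p = 0.0774) and without epidermis array 2 (0.52, adjusted p = 0.162). Elovl4, the elongase for the very long acyl chains of ceramides, had 132 and 44.2 against 5330.2 and 4686 (-5.80, SE 0.47, adjusted p = 3.98e-05). Acer1, an alkaline ceramidase of the epidermis, had 65.7 and 81.3 against 3376 and 4186 (-5.47, SE 0.35, adjusted p = 1.57e-05). Alox12b, the lipoxygenase that oxidises envelope ceramides, had 9.4 and 1.2 against 204 and 234 (-3.78, SE 0.46, adjusted p = 0.000271). Signals of all 3 were low on both duct suprabasal arrays. Some ceramide synthesis genes, unlike Sptlc2 above, were lower by differing amounts. Cers4, a ceramide synthase, had 68 and 272.8 against 1672.5 and 2122.8 (-3.65, SE 0.58, adjusted p = 0.00102), and Degs1, the dihydroceramide desaturase, had 2896 and 3840.3 against 12225 and 11208 (-1.81, SE 0.19, adjusted p = 0.000145). Smpd1, acid sphingomyelinase, which releases ceramide from sphingomyelin, was not called at 382 and 755 against 511 and 729 (-0.18, adjusted p = 0.666).

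**Figure D3:**
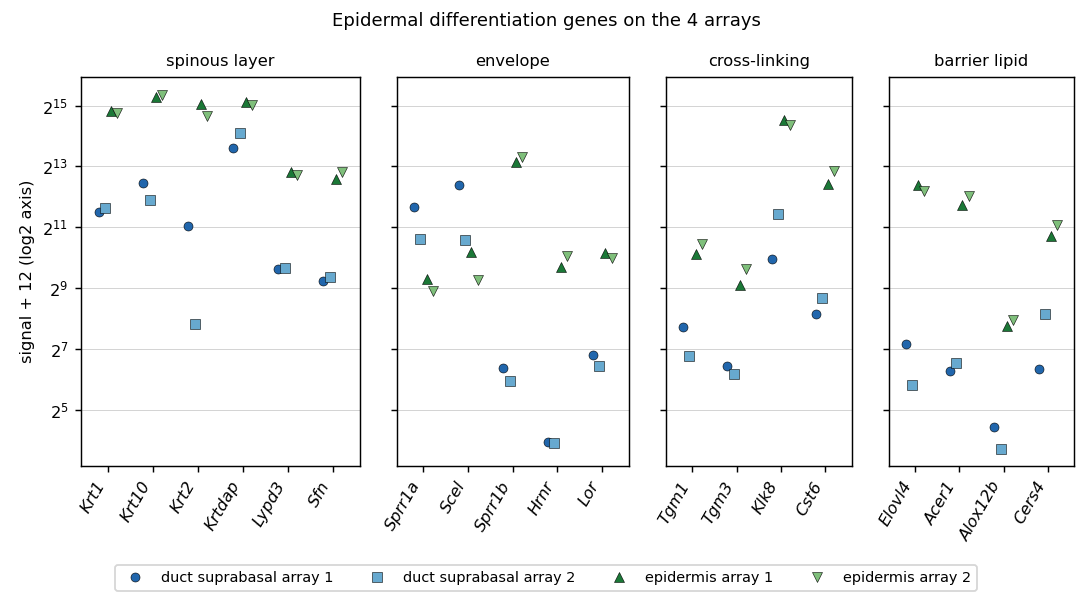
Signal plus 12 on a log2 axis for epidermal differentiation genes, with 1 symbol for each of the 2 duct suprabasal and 2 epidermis arrays. The duct suprabasal symbols lie below the epidermis symbols for all genes drawn except Sprr1a and Scel, where they lie above, and the widest gap among the envelope genes is that of Sprr1b, at -7.05.

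Other transcripts were among the 12 largest decreases with duct suprabasal arrays within 2-fold of each other. Serpina12, a serine protease inhibitor also known as vaspin, had 14 and 21.2 against 1194 and 1689 (-5.61, SE 0.39, adjusted p = 2.1e-05). Endou, a poly(U)-specific endoribonuclease, had 66.6 and 97.3 against 5376 and 4273 (-5.70, SE 0.37, adjusted p = 1.57e-05). Defb1, a beta-defensin of the host defence list, had 9 and 24 against 1506 and 1350.5 (-5.71, SE 0.35, adjusted p = 1.51e-05), with 329 and 218 in duct basal cells. Duct suprabasal cells were the lower of the duct layers for Defb1 (-3.35, adjusted p = 0.000939). Stfa3, a stefin cysteine protease inhibitor, had 76.8 and 83.2 against 5303 and 4036 (-5.66, SE 0.51, adjusted p = 6.44e-05), and Psapl1, a prosaposin-like protein, had 181 and 132 against 6414 and 7118 (-5.35, SE 0.34, adjusted p = 1.57e-05). The rest of the 12 were Sprr1b, Hrnr, Acer1, Teddm3, Gsta2, Dkkl1 and Olah, with differences between -7.05 and -5.46.

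Stress keratins and alarmins, genes that keratinocytes raise after wounding and that palmoplantar skin also carries, were lower in 7 of 10 cases (7 in all scalings) and higher in 0, with a median of -2.02. The count of lower genes was 4 without epidermis array 2. Krt16 had 187 and 209 against 3086 and 4656 (-4.18, SE 0.42, adjusted p = 0.0001). Krt6b, one of its type II partners, had 344 and 170.0 against 3863 and 5315 (-4.16, SE 0.48, adjusted p = 0.000198). The paralog Krt6a did not follow: its signals were 13059.6 and 8107 against 13600.0 and 15528, with no call (-0.50, adjusted p = 0.537), and it was higher than in luminal cells by 4.81 (adjusted p = 0.00193). Probe sets of such near-identical genes can share transcripts, so how far the Krt6a and Krt6b signals are separate was not tested. Il1rn, the interleukin-1 receptor antagonist, had 18.1 and 19.3 against 355 and 374 (-3.62, SE 0.44, adjusted p = 0.000247).

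Keratins as a family, a grouping by symbol made after the values were seen, had 6 of 28 tested members higher (6 in all scalings) and 8 lower (7). Over all genes 29.4% were higher and 16.7% lower. Higher were Krt4, Krt8, Krt18, Krt19, Krt23 and Krt79. Krt79, a keratin of hair canal and sebaceous duct cells in other mouse skin, had 12682 and 22562 against 1853 and 784 (3.80, SE 0.76, adjusted p = 0.00341), with 3095 and 12282 on the duct basal and 487 and 1984 on the luminal arrays. Its lowest duct suprabasal signal was above each of these. Krt14, the acidic keratin of basal keratinocytes, had 20222 and 24644 against 19873 and 24072, a difference of 0.03 (adjusted p = 0.965).

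Basal keratinocyte genes moved both ways: of 14, 6 were higher (4 in all scalings) and 3 lower (2), with a median of 0.23, and 1 was lower without epidermis array 2. The 6 higher genes were the integrins Itga6, Itga3, Itgb1 and Itgb4, the laminin chain Lamb3 and the laminin receptor Bcam; Itga3 and Bcam lost the call after quantile normalization, and Bcam also without duct suprabasal array 2 (0.89, adjusted p = 0.103) and without epidermis array 1 (1.08, adjusted p = 0.129). Lama3, another laminin chain, had 278.6 and 651.5 against 295.3 and 337.7 and was not called (0.42, adjusted p = 0.53). Itgb1, integrin beta 1, had 574 and 773 against 67.9 and 48 (3.29, SE 0.26, adjusted p = 3.98e-05). Itgb4, the hemidesmosome integrin, had 550.5 and 470.1 against 89.9 and 81.9 (2.41, SE 0.24, adjusted p = 9.41e-05), and Lamb3, the beta chain of the basement membrane laminin, had 745 and 629 against 123 and 115 (2.41, SE 0.22, adjusted p = 7.07e-05). Arrays of a population agreed closely for these. Itgb1 did not separate duct suprabasal from duct basal cells, with 593 and 548 there (0.22, adjusted p = 0.612), whereas Itgb4 and Lamb3 were lower than in duct basal cells, with differences of -1.40 and -1.82 (adjusted p = 0.00603 and 0.00177). Trp63, the master regulator of stratified epithelium, went the other way, with 505 and 474 against 2169.6 and 2534 (-2.23, SE 0.22, adjusted p = 8.64e-05). Its duct basal signals were 3631 and 3004 and its luminal signals 38.1 and 55. Krt5 had 1652 and 5105 against 6769.7 and 11346 (-1.59, SE 0.51, adjusted p = 0.0303), a call lost after quantile normalization (-1.34, adjusted p = 0.0674), without duct suprabasal array 1 (-0.78, adjusted p = 0.174), without epidermis array 1 (-1.96, adjusted p = 0.0508) and without epidermis array 2 (-1.22, adjusted p = 0.185).

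Transcription factors of keratinocyte differentiation were 4 higher (2 in all scalings) and 4 lower (4) of 13, beside 29.4% and 16.7% of all genes. Without duct suprabasal array 2 or either epidermis array the count of higher genes was 2. Cebpa, which drives exit from the cell cycle in the spinous layer, had 168 and 337 against 2324 and 1812 (-3.04, SE 0.46, adjusted p = 0.00083). Ovol1, a zinc finger factor that promotes terminal differentiation, had 247 and 209 against 1195 and 1020.5 (-2.22, SE 0.25, adjusted p = 0.000178). Both were lower on each duct suprabasal array. Klf4, a barrier factor, had 4701 and 4228 against 4098 and 5580.1 and was not called (-0.10, adjusted p = 0.787), though it was higher than in luminal cells by 4.05 (adjusted p = 0.000125). Prdm1, a zinc finger repressor also called Blimp1, had 90.3 and 296 against 18.1 and 2.4 (3.09, SE 0.59, adjusted p = 0.00278).

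Cell junction genes exchanged members rather than moving together. Of 10 desmosome genes, 6 were lower (4 in all scalings) and 3 higher (2), with a median of -0.77. Dsc1, the desmocollin of the upper epidermis, had 44.3 and 15.4 against 506 and 551 (-3.78, SE 0.48, adjusted p = 0.000339), and the plakophilin Pkp1 had 4346 and 3933 against 16499.6 and 15381 (-1.94, SE 0.27, adjusted p = 0.000474). Members of simple epithelial desmosomes were higher. Dsg2 had 2948 and 899 against 336 and 376 (2.16, SE 0.49, adjusted p = 0.0063), and Pkp2 had 961 and 245 against 3.8 and 3.4 (5.0, SE 1.18, adjusted p = 0.00765). Both were more than 2-fold brighter on duct suprabasal array 1, and their luminal signals were 2903 and 2205 for Dsg2 and 1689 and 1521 for Pkp2.

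Tight junction genes were higher in 4 of 12 cases (4 in all scalings) and lower in 0, with a median of 0.66, a share of higher genes close to the 29.4% of all genes. Cldn3, a sealing claudin of tubular epithelia, had 2739 and 1099 against 5.2 and 6.9 (6.60, SE 0.74, adjusted p = 0.000173). Cldn8, a claudin of salt-reabsorbing ducts, had 10430.5 and 3388 against 103 and 95.8 (5.74, SE 0.65, adjusted p = 0.000188), and Cldn7 had 1279.5 and 774 against 15.6 and 19.5 (5.09, SE 0.73, adjusted p = 0.000606). No epidermis array approached the duct suprabasal arrays for these claudins. Tjp1, the scaffold ZO-1, was higher by less, at 2136 and 1888 against 734 and 694 (1.48, SE 0.27, adjusted p = 0.00208), and Cldn1 and Cldn4 were not called, at 694 and 239 against 1162 and 1019 (-1.39, adjusted p = 0.103) and at 598 and 589 against 544 and 491 (0.20, adjusted p = 0.765). Without duct suprabasal array 1, Cldn1 was called lower (-2.13, adjusted p = 0.0283).

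Connexins, the channels of gap junctions, were lower in 3 of 5 cases (3 in all scalings) and higher in 1 (1). Gjb5 had 101 and 119 against 2660.5 and 2528 (-4.42, SE 0.30, adjusted p = 1.89e-05). Gjb2 had 598 and 308 against 1565 and 1867 (-1.96, SE 0.32, adjusted p = 0.00116), and Gjb6 had 292 and 173 against 899.5 and 1362 (-2.24, SE 0.40, adjusted p = 0.00184). Gjb2 and Gjb6, the connexins of palmoplantar thickening disorders, remained above luminal cells, by 2.09 (adjusted p = 0.00454) and 3.52 (adjusted p = 0.00106). The gene called higher was Gjc1, at 95.6 and 395 against 24.1 and 30 (2.43, SE 0.55, adjusted p = 0.00641). It is a connexin also made by vessel cells, and whether such cells contributed to its signal was not tested.

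**Figure D4:**
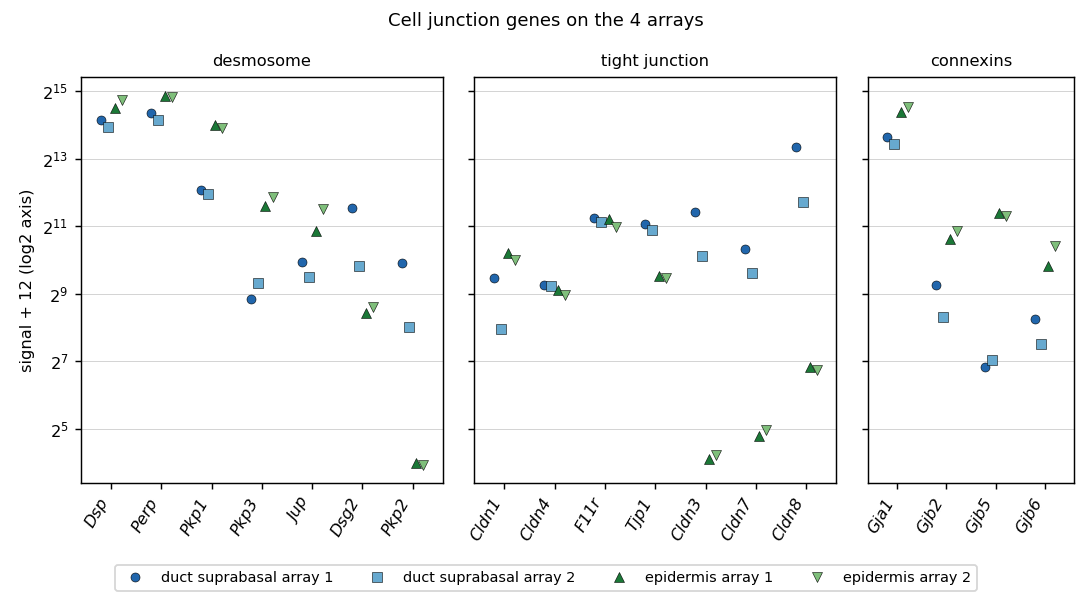
Signal plus 12 on a log2 axis for desmosome, tight junction and connexin genes on the 4 arrays. Epidermis symbols lie above duct suprabasal symbols for Pkp1, Pkp3, Gjb5 and the other connexins drawn, and below them for Pkp2, Dsg2, Cldn3, Cldn7 and Cldn8, with symbols close together for Cldn4 and F11r.

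Ion transport genes made up the other side of the comparison. Of 12 genes for the sodium channel and its regulators, 10 were higher (8 in all scalings) and 0 lower, with a median of 2.28; 8 were higher without duct suprabasal array 1 and 10 without array 2. The subunit genes were Scnn1b, given above, Scnn1g and Scnn1a. Scnn1g had 902 and 680.2 against 29.5 and 68.7 (3.78, SE 0.39, adjusted p = 0.000122), and it lies next to Scnn1b on mouse chromosome 7 with 0 protein-coding genes starting between them. Scnn1a, the subunit without which the channel does not conduct, had 218 and 196 against 88.8 and 68 (1.28, SE 0.46, adjusted p = 0.0458), and that call was lost after quantile normalization (0.61, adjusted p = 0.291), with arrays centred (0.79, adjusted p = 0.161) and without either duct suprabasal or either epidermis array. Scnn1b and Scnn1g were also higher than in duct basal cells, by 2.49 (adjusted p = 0.00184) and 2.78 (adjusted p = 0.00313), but differed from luminal cells by 0.03 (adjusted p = 0.952) and 0.36 (adjusted p = 0.576).

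Regulators of the channel were called in part. Sgk1, the aldosterone-induced kinase that keeps the channel at the surface, had 17955 and 12719 against 1946 and 1769 (3.02, SE 0.29, adjusted p = 8.47e-05). Wnk4, a kinase of salt transport, had 548 and 194 against 24.5 and 24.3 (3.22, SE 0.46, adjusted p = 0.000622). Nedd4, of the ubiquitin ligase family that removes the channel, had 3499 and 3055 against 583 and 678 (2.36, SE 0.22, adjusted p = 7.38e-05). Tmprss2, a serine protease able to cleave the channel, had 638 and 235 against 24.2 and 24.5 (3.46, SE 0.82, adjusted p = 0.0077). Wnk1, a related kinase, had 2758 and 4041 against 2667 and 3007 and was not called (0.24, adjusted p = 0.404), nor was Prss8, a channel-activating protease (0.93, adjusted p = 0.128). The 4 called genes named here lay above both epidermis arrays, with Wnk4 and Tmprss2 more than 2-fold brighter on duct suprabasal array 1.

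Genes of the sodium pump were near the bottom of the signal range in epidermis. Atp1b1, its beta 1 subunit, had 35401 and 21897 against 3.5 and 1.1 (10.93, SE 0.76, adjusted p = 2.2e-05), and Fxyd2, a small regulator of the pump, had 21831 and 14000.4 against 5.5 and 13.1 (9.71, SE 0.70, adjusted p = 2.21e-05). Both were within 2-fold on the duct suprabasal arrays and at the bottom of the scale in epidermis. Other parts of the pump family did not move so: Atp1b3, the beta 3 subunit, had 4988 and 5114 against 6432 and 6546 (-0.36, adjusted p = 0.0983), and Fxyd3 had 19676 and 18561 against 23084 and 21929.9 (-0.24, adjusted p = 0.488). Luminal signals of Atp1b1 were 28079 and 47608, and the difference from duct suprabasal cells was -0.39 (adjusted p = 0.765). Of 13 genes of pump, potassium and chloride transport, 8 were higher (8 in all scalings) and 0 lower, with a median of 2.59.

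Slc12a2, the sodium-potassium-chloride cotransporter, had 29532 and 27629 against 4473 and 5105 (2.58, SE 0.31, adjusted p = 0.000241). Kcne3 and Kcnq1 encode the accessory and pore subunits of a basolateral potassium channel. Kcnq1 had 819 and 257 against 2.2 and 28.7 (4.30, SE 0.70, adjusted p = 0.00117), and Kcne3 had 2876 and 999 against 24.3 and 0.7 (6.31, SE 0.92, adjusted p = 0.000686). The cotransporter was even on the duct suprabasal arrays, while the channel subunits were more than 2-fold brighter on array 1.

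Genes of ionocytes, the acid-base transporting cells of ducts and airways, were higher in 5 of 7 cases (5 in all scalings) and lower in 0, with a median of 3.97, and all 7 were brighter on duct suprabasal array 1. Foxi1, the factor that specifies ionocytes, had 1510.2 and 360.1 against 2.9 and 1.4 (5.74, SE 0.86, adjusted p = 0.000786). Atp6v1b1, a subunit of the plasma membrane proton pump, had 4078 and 1867 against 4.4 and 26.9 (6.78, SE 0.77, adjusted p = 0.000189). Slc26a4, the anion exchanger pendrin, had 828 and 177 against 1 and 13.7 (4.45, SE 0.84, adjusted p = 0.0025), and Car12, a carbonic anhydrase, had 11809.9 and 4885 against 427 and 522 (3.97, SE 0.63, adjusted p = 0.00101). Each was brighter on both luminal arrays than on either duct suprabasal array, with 4566 and 3732 for Foxi1, though the difference did not pass the test (-2.46, adjusted p = 0.0865). Car2, another carbonic anhydrase, was uneven in epidermis itself, at 553 and 3711, and was not called (-0.37, adjusted p = 0.794).

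**Figure D5:**
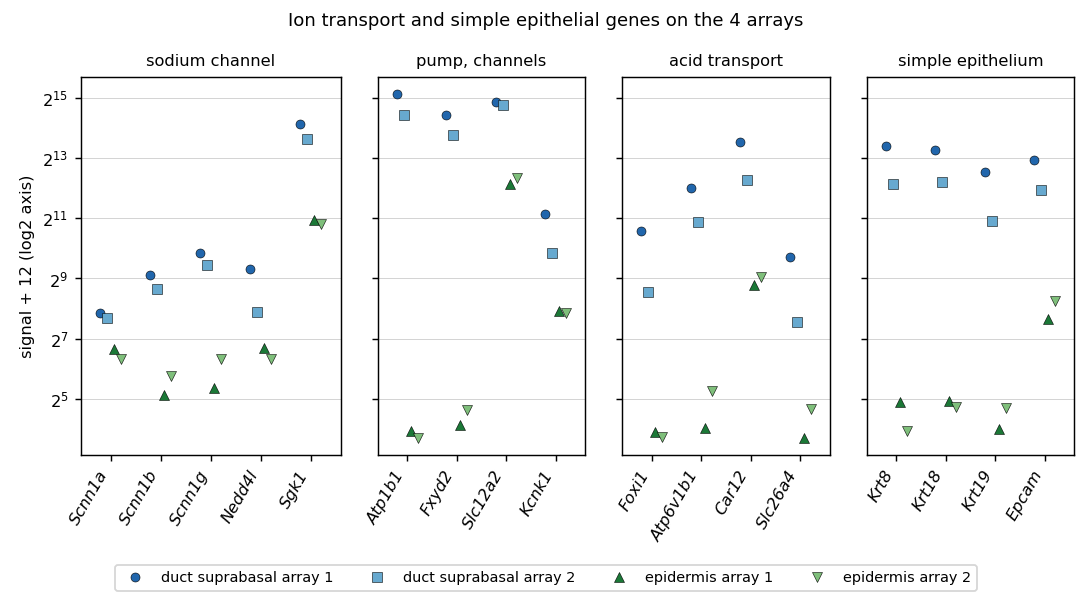
Signal plus 12 on a log2 axis for sodium channel, pump and channel, acid transport and simple epithelial genes on the 4 arrays. All duct suprabasal symbols lie above the epidermis symbols, least for Scnn1a, and within the acid transport panel array 1 lies above array 2 for each gene.

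Simple epithelial genes were higher in 8 of 14 cases (8 in all scalings) and lower in 1 (1), with a median of 2.62. Krt18, the partner of Krt8 and its neighbour on mouse chromosome 15, had 9821 and 4751 against 18.3 and 14.9 (7.91, SE 0.81, adjusted p = 0.000115), and Krt19 had 5979.8 and 1905 against 4.1 and 14.1 (7.37, SE 0.87, adjusted p = 0.000223). Prom1, a protein of apical protrusions, was even on the duct suprabasal arrays, at 509 and 468 against 16.9 and 1.3 (4.67, SE 0.43, adjusted p = 6.82e-05). Cdh1, E-cadherin, common to both epithelia, was not called at 7707 and 3291 against 5220.3 and 5629.9 (-0.11, adjusted p = 0.836). Rab25, a GTPase of apical recycling, was the member called lower, with 1562 and 1005 against 6319 and 6989 (-2.40, SE 0.53, adjusted p = 0.00548).

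Transcripts of the secretory coil and glandular transcription factors were higher too. Of 14 secretory coil genes, 10 were higher (7 in all scalings) and 0 lower, with a median of 2.39, and 6 were higher without epidermis array 1. Best2, an anion channel of secretory cells, had 5147 and 3076 against 18.2 and 21.4 (6.97, SE 0.92, adjusted p = 0.000407) and was higher than in duct basal cells by 5.18 (adjusted p = 0.00745). Its luminal signals were 1725.5 and 2435.3, and duct suprabasal cells differed from luminal cells by 0.95 (adjusted p = 0.522). Aqp5, the water channel of the sweat coil, had 7265 and 4071 against 554 and 782 (3.02, SE 0.60, adjusted p = 0.00319), with 16771 and 24287 in luminal cells (-1.89, adjusted p = 0.063). Kcnn4, a calcium-activated potassium channel, had 6893 and 2082 against 5.5 and 8.4 (7.65, SE 0.87, adjusted p = 0.000188). Best2 and Aqp5 lay within 2-fold on the duct suprabasal arrays and Kcnn4 did not.

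Of 17 glandular transcription factors, 11 were higher (11 in all scalings) and 0 lower, with a median of 3.25. Foxc1, a forkhead factor of the sweat duct and gland, had 1830.5 and 982 against 18.3 and 1.2 (6.08, SE 0.46, adjusted p = 2.64e-05). Sox9 had 3627 and 1236 against 44.1 and 22.7 (5.59, SE 0.52, adjusted p = 6.82e-05). Foxa1, a forkhead factor of the sweat coil, had 2038 and 781 against 12.1 and 42.1 (5.14, SE 0.96, adjusted p = 0.00243), with 60.3 and 32.6 in duct basal and 794 and 830.4 in luminal cells. Foxa1 set duct suprabasal apart from duct basal cells by 4.49 (adjusted p = 0.0161), while Foxc1, at 673 and 1167 in duct basal cells, differed there by 0.59 (adjusted p = 0.406).

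Some of the largest gains were even on the duct suprabasal arrays and are thus less tied to either of them. Wfdc2, a secreted protease inhibitor of glandular epithelia, had 10493 and 11211 against 33.1 and 15.5 (8.27, SE 0.49, adjusted p = 1.26e-05). Prss23, a secreted serine protease, had 4019 and 4013 against 8.4 and 13.1 (7.48, SE 0.26, adjusted p = 2.3e-06), and it exceeded duct basal cells by 2.05 (adjusted p = 0.00212) and luminal cells by 1.44 (adjusted p = 0.00896), but the myoepithelial arrays had 23178.4 and 29026.3. Timp3, an inhibitor of matrix metalloproteases, had 7786 and 6683 against 67.5 and 84.5 (6.37, SE 0.24, adjusted p = 2.3e-06), and it also exceeded duct basal (2.00, adjusted p = 0.00153) and luminal cells (1.90, adjusted p = 0.00186), with 12680.1 and 17898.9 in myoepithelial cells. Kitl, the ligand of the Kit receptor, had 5652 and 3232 against 12 and 20.5 (7.26, SE 0.38, adjusted p = 7.93e-06), with 10968.1 and 16800.8 in myoepithelial cells. These 3 genes were thus brightest in myoepithelial cells and not in the duct. The receptor gene Kit itself had 1599 and 403 against 11.7 and 12.7 (5.08, SE 0.84, adjusted p = 0.0013), with 2742 and 2248 in luminal cells. Enpp3, an ectonucleotidase, had 1208 and 1954 against 0.6 and 1 (6.92, SE 0.47, adjusted p = 2.03e-05), and Tspan13, a tetraspanin, had 4238 and 5798 against 9.3 and 21.9 (7.53, SE 0.54, adjusted p = 2.21e-05). The rest of the 12 in this class were Atp1b1, Fxyd2, Best2, Cyp2f2, Fermt2 and C1s1, and the 12 differences ran from 6.32 to 10.93.

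Secreted host defence genes were 6 higher (5 in all scalings) and 1 lower (1) of 10, the one lower being Defb1. Lyz1, a lysozyme, had 395 and 1394 against 8.3 and 9.4 (5.18, SE 0.64, adjusted p = 0.000278) and was brighter on array 2, as were the 9 immune markers tested. The sums over all 11 measured were 932.0 and 2062.3 against 363.7 and 500.7. Slpi, a secreted leukocyte protease inhibitor, had 154 and 279 against 26.2 and 40.9 (2.29, SE 0.47, adjusted p = 0.0039). Ptprc, the pan-leukocyte marker, was low everywhere, at 16.3 and 59.2 against 18.8 and 16.9, with no call (0.59, adjusted p = 0.519).

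Fibroblast and vessel genes formed the third block. As said above, all tested members were brighter on duct suprabasal array 2, though by less than 2-fold for Col6a2 (1109.9 and 2028.1) and Esm1 (587.5 and 796.2). Some epithelial genes were also brighter there, such as Col17a1 (305.7 and 1993.8) and Krt5 (1652 and 5105). The pattern over the arrays thus did not by itself separate this block from epithelial genes. All 17 fibroblast genes tested and all 15 endothelial genes were called higher (17 and 15 in all scalings, beside 29.4% of all genes), with medians of 4.59 and 5.32. Col3a1, a fibrillar collagen, had 5966 and 26876 against 25 and 19.1 (8.55, SE 0.63, adjusted p = 2.5e-05), and Lum, lumican, had 1071 and 8613 against 5.9 and 7.4 (7.36, SE 0.82, adjusted p = 0.000173). Plvap, a protein of fenestrated endothelium, had 3085 and 13152 against 8.2 and 17 (8.04, SE 0.67, adjusted p = 4.38e-05). Vwf, von Willebrand factor, had 499 and 2995 against 2.2 and 1.9 (6.46, SE 0.91, adjusted p = 0.000566). Vwf belongs to the endothelial list, while Plvap was named as one of the 8 largest gains that were brighter on array 2. Array 2 was more than 2-fold brighter than array 1 for each of these genes, yet array 1 was itself far above epidermis. Leaving out array 2 kept all 17 and 15 calls, with medians of 3.41 and 4.08, and leaving out array 1 raised the medians to 5.99 and 6.27; 16 fibroblast genes were called without epidermis array 1, when Thy1 was at 2.97 (adjusted p = 0.0583).

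Signals of this block were not confined to duct suprabasal cells. Col3a1 had 712 and 753 on the duct basal and 895 and 2455 on the luminal arrays. Compared with the same epidermis arrays, 10 of the 17 fibroblast genes and 3 of the 15 endothelial genes were called higher in duct basal cells, beside 23.0% of all genes. Vim, vimentin, the intermediate filament of mesenchymal cells and another of those 8, had 12802 and 28554 against 24 and 51.2 (8.65, SE 0.55, adjusted p = 1.51e-05), with 3492 and 1462 in duct basal and 27160.7 and 41324.3 in myoepithelial cells, so its signal was as high in an epithelial population. Fabp4, a fatty acid carrier of fat and capillary cells, had 3417 and 22499 against 12.4 and 4 (8.80, SE 0.94, adjusted p = 0.000138). Defining markers were thus present on both duct suprabasal arrays and close to the bottom of the scale in epidermis, among them Pdgfra at 494 and 2027 against 16.5 and 5.3 and Pecam1 at 250.4 and 1063 against 3.5 and 3.5. Their part in the other differences was not tested.

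Other cell type lists were smaller, and their counts stand beside the 29.4% of all genes called higher and 16.7% called lower. Melanocyte genes were higher in 4 of 5 cases (4 in all scalings), with Tyrp1, a melanin enzyme, at 89 and 166 against 0.9 and 0.7 (3.39, SE 0.47, adjusted p = 0.000536) and luminal signals of 113 and 206. Tyrp1 and Dct, another melanin enzyme, at 222.2 and 379.7 against 28.5 and 23, were brighter on array 2. The sums over the 6 measured genes were 2168.6 and 1200.4 against 157.7 and 163.8, and they follow Kit, a receptor that luminal cells also carry, given above. Pericyte genes were higher in 3 of 5 cases (3), and the 8 measured had sums of 580.4 and 2746.8 against 105.7 and 153.7. Contractile genes, shared by smooth muscle and myoepithelial cells, were higher in 5 of 10 cases (4) and lower in 1 (1). Acta2, smooth muscle actin, was even on the duct suprabasal arrays, at 1612 and 1699 against 169 and 254 (2.93, SE 0.37, adjusted p = 0.000339), and of 2 probe sets tested for it the other had the opposite sign without a call. Tpm2, a tropomyosin, was the one lower, at 976 and 1611 against 4098 and 4923 (-1.83, SE 0.35, adjusted p = 0.00253). Schwann cell genes were higher in 2 of 3 cases (2), S100b and Mbp, and a further probe set of Mbp differed in sign. S100b had 5918 and 2086 against 26 and 37.6, brighter on array 1 as the simple epithelial genes were. Ngfr was not called (-1.07, adjusted p = 0.263). Both adipocyte genes tested were higher (2). Immune genes were higher in 3 of 9 cases (1), and in 1 without epidermis array 1. Of the 2 red blood cell genes 1 was higher (0), a call lost without any 1 of the 4 arrays, and of 3 skeletal muscle genes 1 was lower (1), with 0 lower without epidermis array 1. No Merkel cell gene was bright enough to be tested.

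Genes induced by tissue dissociation were higher in 11 of 15 cases (8 in all scalings) and lower in 0, with a median of 2.23 and summed signals of 86754.7 and 78960.9 against 24083.9 and 32946.2. The count was 6 without epidermis array 1. Fos, an AP-1 subunit and early response gene, had 14472 and 9862 against 785 and 1178 (3.62, SE 0.27, adjusted p = 2.6e-05), with 20208 and 28158 in duct basal and 19409 and 17509 in luminal cells. Nr4a1, an early response nuclear receptor, had 3162 and 1234 against 15.9 and 40 (5.71, SE 0.48, adjusted p = 4.71e-05). Epidermis was thus the dimmest of these 4 populations for both genes, and the part of this response in the other differences was not tested.

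Higher calls among signalling genes were about as frequent as the 29.4% of all genes. Of 14 Notch pathway genes, 5 were higher (3 in all scalings) and 1 lower (0), with a median of 0.87, and without duct suprabasal array 2 or either epidermis array the count of higher genes was 3. The gene called lower was Nrarp, a feedback inhibitor of the pathway (-1.01), and that call was lost without any 1 of the 4 arrays, with adjusted p-values from 0.0551 to 0.148. The receptors Notch1 (adjusted p = 0.998), Notch2 (0.01, adjusted p = 0.966) and Notch3 (0.37, adjusted p = 0.527) were not called. Notch4, the receptor also made by vessels, had 257 and 583 against 4.4 and 2.9 (4.68, SE 0.43, adjusted p = 6.7e-05). In the Wnt and Eda list of 16 genes, 5 were higher (2) and 3 lower (3), with a median of 0.40, and the count of higher genes was 3 without duct suprabasal array 2, 2 without epidermis array 1 and 3 without epidermis array 2. Fzd7, a Wnt receptor, had 1879.9 and 1818 against 119.8 and 84.5 (4.04, SE 0.21, adjusted p = 7.93e-06), and Wnt4, a ligand, had 163 and 144 against 2302 and 2267 (-3.80, SE 0.30, adjusted p = 3.8e-05). Both were nearly even between arrays of a population. Fzd7 was as bright on the duct basal arrays, at 1937 and 1866, while Wnt4 was lower than in duct basal cells (-1.33, adjusted p = 0.0201). Tcf7l1, a Wnt-responsive repressor, had 243 and 287 against 35.8 and 38.5 (2.49, SE 0.23, adjusted p = 6.82e-05). Of 7 genes for receptors and ligands of the Egf family, 2 were higher (1), and 1 was without duct suprabasal array 1, either epidermis array or luminal array 1. Tgfa, a ligand, had 428 and 313 against 67 and 64 (2.29, SE 0.30, adjusted p = 0.000407).

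Of 20 cell cycle genes, 4 were lower (4 in all scalings) and 0 higher, with a median of -0.31 against 0.26 for all genes, and the count of lower genes was 1 without duct suprabasal array 1, 0 without epidermis array 1 and 2 without epidermis array 2. It was 9 after quantile normalization and 7 with arrays centred. In the main analysis the share of lower genes, 4 of 20, was close to the 16.7% of all genes. Mki67, a marker of cycling cells, had 378 and 166 against 306 and 290.0 and was not called (-0.23, adjusted p = 0.722). In duct basal cells, compared with the same epidermis arrays, 19 of the 20 were higher, beside 23.0% of all genes. Of 22 respiratory chain genes, 10 were lower (7 in all scalings), beside 16.7% of all genes, and 1 higher (0), with a median of -0.51, and the count of lower genes was 5 without epidermis array 2 and 17 with arrays centred. Ndufa9, a subunit of complex I, had 2445 and 2468 against 6121 and 5891 (-1.29, SE 0.17, adjusted p = 0.000402), the largest difference of the list.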

How the data were processed

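The values were linear MAS5 signal intensities deposited by the authors for 22690 probe sets on 10 arrays, with MAS5 named in the submitters' processing notes and its version not given in the sources used here. On every array the mean without the highest and lowest 2% of signals was 500, so the arrays had been scaled to a common trimmed mean before deposit. No detection calls were used, and the number of arrays limits the precision.

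From these, log2(signal + 12) was taken. Of the probe sets, 64 were controls, 20380 had 1 gene symbol in the platform annotation, 691 had several and 1555 were not listed. The probe set with the highest mean over the 10 arrays stood for each of 12393 genes, and 9320 genes were tested, those whose signal passed its array's 40th percentile on 2 or more arrays. One limma model (limma 3.58.1, R 4.3.3) with a trend on the mean signal was fitted to 5 groups of 2 arrays, with 5 residual degrees of freedom. P-values have Benjamini-Hochberg adjustment over all genes tested. The procedure was checked on simulated data with the same spread in all 5 populations. That check does not cover the wider spread of the duct suprabasal arrays.

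Named were the 12 largest differences in each direction with the duct suprabasal arrays within 2-fold, the 8 largest gains brighter on array 2, the 6 brighter on array 1, up to 5 per gene list and direction, and 3 markers. All but the markers had to be called, at least 2-fold different, without overlap, and brighter than the median gene in the higher population. Other list members were named to describe a list. The members, 34 lists and tests were chosen with earlier results of these data known. The alternatives were other pseudocounts (1 and 50), quantile normalization, no filter or the 60th percentile, the mean of all probe sets, only the 4 arrays, no trend, array weights, a replicate block and leaving out each array. Centring of arrays on their median was added after seeing the data. Replicate numbers are given in the labels without any pairing.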

Additional observations from a re-analysis of the deposited data

How the results depend on the processing

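Counts of higher calls ranged from 1914 to 2711 when 1 array was left out, and counts of lower calls from 919 (without epidermis array 1) and 968 (without epidermis array 2) up to 1525; a population left with 1 array is assumed to vary like the others. Centring the arrays on their median, chosen after seeing the data, gave 1753 higher and 2702 lower. Some other models called fewer genes than the 4291 of the main one. With only the 4 arrays 3246 were called, 2070 higher and 1176 lower. Array weights gave 3683 calls and the model with no trend 4142. With the replicate number as a block, 4710 genes were called, 2989 higher and 1721 lower. The labels describe no pairing, and the array deviations of duct suprabasal and epidermis correlated at 0.0878 over genes. Of 151 named genes, between 137 and 151 kept their call and direction under each alternative, 146 after quantile normalization and 145 with arrays centred. All but the markers had been chosen as called and at least 2-fold different in these same data, which favours stable calls. Of all 4291 genes called, 3316 had the same call after quantile normalization, 3305 with arrays centred and 3206 with only the 4 arrays. Among the named genes, Dst, which encodes the hemidesmosome linker dystonin, reversed to 0.15 with the mean of all probe sets (adjusted p = 0.797). Of the named genes, 59 had several probe sets tested, and a further probe set differed in sign for 5 of them (Dst, Itpr2, Acta2, Csf1r and Mbp). For 1 of these genes such a probe set was itself called in the opposite direction. With 2 arrays a population and no detection calls, signals near the pseudocount have little order.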
